A study of Drosophila melanogaster with 3 samples.

Results

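The peaks described here lie at Trl, psq and CLAMP, the genes of 3 transcription factors that bind GA-repeat DNA, in a map of the protein CG15011 on the chromatin of Drosophila melanogaster embryos. The genes were chosen by symbol (CLAMP is spelled Clamp in Ensembl release 115), and every peak at their transcription start sites (TSSs), in their introns and within 10 kb of them was taken. They are 3 of 13945 protein-coding genes and of 18164 genes of all kinds on the 6 chromosome arms analysed. The choice was made with the peaks of these data in view, the intronic peak of Trl above all. What follows on their peaks is therefore a description, and no test was made. The assay was chromatin immunoprecipitation followed by sequencing on whole embryos of both sexes, aged 0 to 24 h. The embryos came from a transgenic line that stably expresses CG15011, named as an uncharacterised protein in RefSeq, fused at its C terminus to green fluorescent protein. Chromatin was sonicated to between 200 and 800 bp. The 3 biological replicates form 1 group, and the labels say nothing further of how their embryos were collected. A text label names the samples as input controls, while the deposited notes derive each peak list from that replicate's alignment and from a separate control alignment, which was not analysed here.

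Each replicate has a list of 30000 peaks, as has the pool of the replicates. By its label the pooled list holds peaks and background and served as input for choosing the optimal set. Its entries are called peaks here, but the weaker ones need not be sites of binding. The authors' optimal set is a smaller list, equals the strongest pooled peaks and was derived from these replicates, so agreement between them at optimal peaks is in large part built in. The signal of a peak is the authors' value and orders peaks only within its own list, from 44.12 to 3202 in the pooled list and from 157.8 upward in the optimal set. Rank 1 is the strongest peak of a list, and the weakest optimal peak marks the optimal limit. In a replicate, the peaks above the same rank are called its top peaks. Read depth is unknown. Coordinates are on dm6. A peak was placed by its summit, as promoter within 500 bp of any TSS of the gene, and otherwise as exon, intron or outside the gene. Because CG15011 carried the tag in all samples and no untagged or control sample is among the files used, no level of a background sample can be given.

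Trl encodes the GAGA factor, a BTB-domain zinc-finger protein that binds GAGAG-like repeats, keeps promoters open and takes part in Polycomb and Trithorax regulation. Pipsqueak, the product of psq, joins a BTB domain to a DNA-binding domain made of Psq motifs, recognises similar GA repeats and is known for its part in Polycomb silencing and in oogenesis. CLAMP is a zinc-finger protein that binds longer GA repeats and brings the MSL dosage compensation complex to the male X chromosome.

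The sequences below show the letters under the peaks that the results turn on, read from the plus strand of the RefSeq copy of Release 6, the assembly of dm6. Trl and CLAMP are transcribed from the minus strand. The strongest intronic peak of Trl is shown over 300 bases centred on its summit (chr3L:14759378-14759677), and the narrow intronic peak over its whole width of 111 bases (chr3L:14756162-14756272). The stronger pooled peak of CLAMP is shown over the 126 bases of its summit window that lie outside an annotated UTR (chr2L:22168762-22168887). In these 3 sequences the capitals mark runs of at least 8 bases of A and T only.
Trl strongest intronic peak: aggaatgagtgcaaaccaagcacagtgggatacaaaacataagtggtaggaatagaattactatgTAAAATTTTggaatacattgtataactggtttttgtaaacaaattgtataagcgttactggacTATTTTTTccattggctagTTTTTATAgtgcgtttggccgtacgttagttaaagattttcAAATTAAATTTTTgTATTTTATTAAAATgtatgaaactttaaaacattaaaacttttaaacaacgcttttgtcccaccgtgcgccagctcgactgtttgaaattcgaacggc
Trl narrow intronic peak: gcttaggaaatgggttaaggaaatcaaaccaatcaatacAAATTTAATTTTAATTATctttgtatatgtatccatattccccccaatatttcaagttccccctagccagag
CLAMP promoter peak: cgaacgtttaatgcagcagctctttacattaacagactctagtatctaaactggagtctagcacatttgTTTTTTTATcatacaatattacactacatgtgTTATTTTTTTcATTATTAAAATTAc
For contrast, the capitals of the next pair mark GAGAG or its reverse complement CTCTC. The first comes from the weakest of the intronic optimal peaks of Trl (chr3L:14760255-14760474), and the last from within 100 bp of the summit of a promoter peak of Trl outside the optimal set (chr3L:14758173-14758373).
Trl weakest intronic optimal peak: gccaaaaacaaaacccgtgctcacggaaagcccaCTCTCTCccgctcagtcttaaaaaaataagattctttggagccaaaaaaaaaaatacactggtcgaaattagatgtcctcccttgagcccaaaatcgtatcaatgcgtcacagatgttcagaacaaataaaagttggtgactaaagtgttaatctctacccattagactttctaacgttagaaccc
Trl promoter peak outside the optimal set: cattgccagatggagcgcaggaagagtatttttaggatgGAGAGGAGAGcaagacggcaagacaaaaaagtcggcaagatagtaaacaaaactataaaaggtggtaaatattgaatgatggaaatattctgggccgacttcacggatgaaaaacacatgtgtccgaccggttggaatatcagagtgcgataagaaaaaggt
In the strongest Trl peak, 5 runs of A and T took up 52 of 300 bases and the longest was 14 bases. The narrow Trl peak held a single run of 18 bases. The CLAMP stretch held 3 runs, the longest of 13 bases.

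The intronic peak of Trl was among the strongest of the whole map. Trl (FBgn0013263) lies on 3L from 14747929 to 14761049 on the minus strand and has 10 annotated transcripts that start at 4 TSSs. The peak spans 14759302 to 14759738, with a pooled signal of 2582 and rank 5. In replicates 1, 2 and 3 the overlapping peak had signals of 761.2, 1167 and 662.3 and ranked 5, 6 and 5. The strongest signals of those lists were 973.6, 1530 and 794.9. The peak thus stood at nearly the same rank in every list, and its replicate summits lay 18, 15 and 0 bp from the pooled summit. The summit lies 1521 bp downstream of the most distal TSS of Trl and 1566 bp upstream of the next. It falls in intron 2 of Trl-RF, which is the 1 transcript of the 10 that starts at the distal TSS, and the other 9 transcripts start downstream of it.

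**Figure D1:**
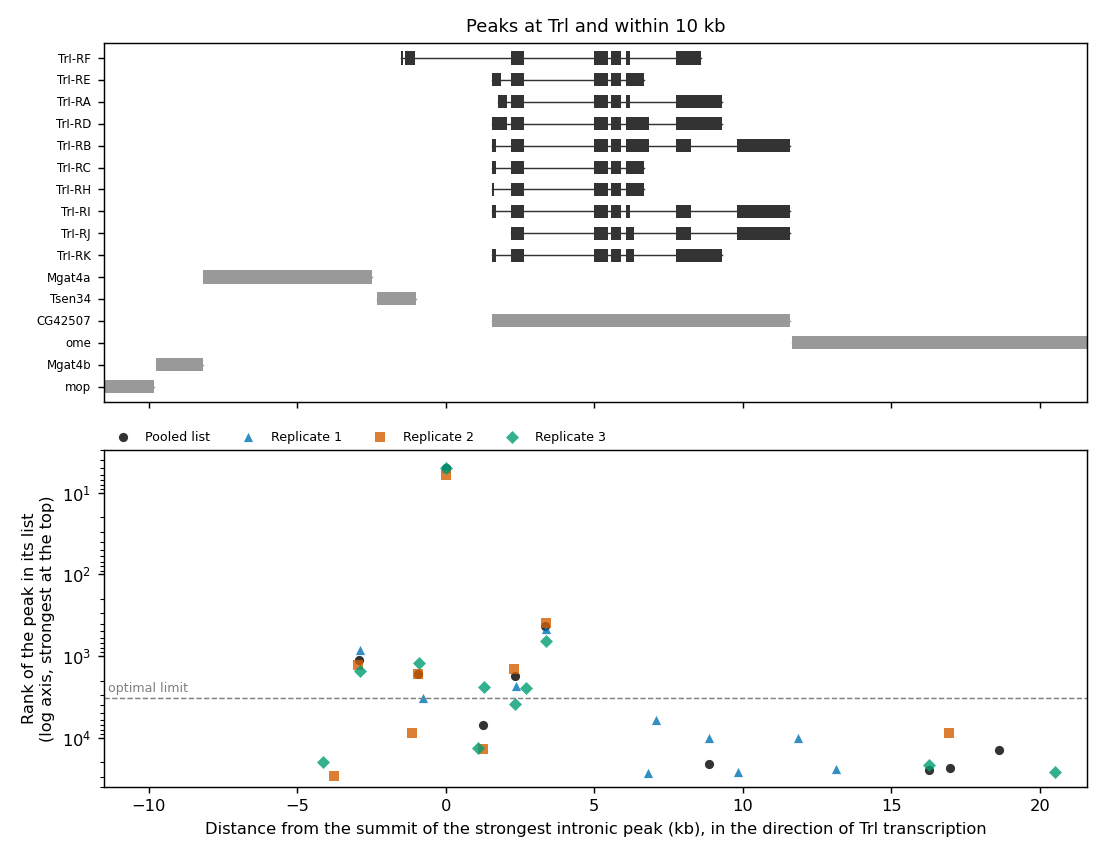
Transcripts of Trl and the neighbouring genes (top, exons of Trl as boxes and other genes as grey bars) above the rank of each peak in the pooled list and the 3 replicates (bottom, log axis, strongest at the top). The strongest intronic peak is at 0 kb with ranks of 5 to 6, and the other peaks within 10 kb of the gene rank 398 or lower. The dashed line marks the optimal limit.

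Trl carried 4 further optimal peaks within 10 kb, all of them close to the start region of the gene. An optimal peak within 10 kb was present at 46.2% of all protein-coding genes, and at least 4 were present at 4.34%. The narrow intronic peak (14756162 to 14756272) had a signal of 529.3, pooled rank 429 and ranks of 468, 398 and 653 in replicates 1, 2 and 3. It is 111 bp wide, with only 10 optimal peaks, itself included, of that width or less, and its summit lies 1159 bp downstream of the nearest TSS in an intron shared by all 10 transcripts. It also lies in the body of CG42507, an annotated gene that overlaps Trl. The overlapping peaks of replicates 1, 2 and 3 were 410, 430 and 456 bp wide, the common width of each list. The width of 111 bp thus belongs to the pooled and optimal calls only. The promoter peak (14756984 to 14757427, signal 236.2, pooled rank 1756) had its summit 130 bp downstream of the TSS at 14757336, and also within CG42507. Its ranks were 2318, 1444 and 2471. In replicate 3 the ranked peak had its summit 370 bp away, and the peak with the nearest summit ranked 3890. The placing as promoter rests on the TSS of Trl-RJ alone. In the other transcripts of Trl the pooled summit lies in an exon from 14756904 to 14757330.

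The remaining optimal peaks flank the distal TSS of Trl. That TSS lies inside Tsen34, a gene that runs from 14760520 to 14761844 on the same strand. The first peak below reaches into Tsen34, but its pooled summit lies outside that gene. The intronic peak at 14760232 to 14760675 had a signal of 245.8 and pooled rank 1639, with its summit 595 bp inside Trl-RF. It ranked 3271, 1649 and 1221 in replicates 1, 2 and 3, lowest in replicate 1, where its summit was 153 bp away. The peak at 14762239 to 14762682 (signal 309.5, pooled rank 1125) ranked 834, 1281 and 1509 and lay 1412 bp upstream of Trl. That summit is within 500 bp of a TSS of Mgat4a, a glycosyltransferase gene, and in its body, so it cannot be given to Trl alone. The annotated start of Tsen34 also lies nearer to this summit than the distal TSS of Trl does. By place, Trl had 1 promoter peak, 3 intronic peaks and 1 peak outside the gene in the optimal set. The shares of protein-coding genes were 10.8% with an optimal promoter peak, 6.25% with an optimal intronic peak and 1.18% with at least 3 intronic peaks.

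The pooled list adds 5 weaker peaks to the 5 optimal ones near Trl. The strongest of them (14758051 to 14758494, signal 95.64, pooled rank 6928) lies 311 bp upstream of the TSS at 14757962, near which CG42507 also starts. Replicates 2 and 3 held it at ranks 13913 and 2365, and replicate 1 held no overlapping peak. An exonic peak with a signal of 52.83 ranked 21212 and overlapped a peak of replicate 1 only, at rank 10190. The other 3 lie beyond the 3′ end, in the body of ome, with signals from 48.44 to 65.18. Of these 5 weaker peaks, 1 overlapped peaks of 2 replicates, 3 overlapped a peak of 1 replicate and 1 overlapped none. The same shares over all pooled peaks outside the optimal set were not computed. The whole span within 10 kb held 11, 9 and 11 peaks in replicates 1, 2 and 3, of which 4, 5 and 6 were top peaks. Replicate 1 alone had 4 intronic peaks, the added peak being at rank 6079.

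The longer gene psq was covered by many weaker peaks and had no optimal peak at any TSS. psq (FBgn0263102) lies on 2R from 10557888 to 10617280 on the plus strand, with 15 transcripts from 5 TSSs and 51.8 kb of intron, against 6.87 kb in Trl. All 4 of its optimal peaks are intronic. The strongest (10581981 to 10582424, signal 447.8) had pooled rank 597 and ranked 777, 877 and 365 in replicates 1, 2 and 3, highest in replicate 3. Its summit lies 1483 bp upstream of the TSS at 10583686, in an intron of 10 of the 15 transcripts. The peak beside it (10582182 to 10582625, signal 347.9, pooled rank 937) overlaps it. The strongest overlapping replicate peaks are the same for this pair, while those with the nearest summit to the weaker one ranked 1688, 3056 and 874. The pair may therefore be counted as 1 place.

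The other optimal peaks of psq lie upstream of its middle TSSs and close to the lower limit of the optimal set. The peak at 10566271 to 10566714 had a signal of 184.6 and pooled rank 2575, 2449 bp upstream of the TSS at 10568942, and ranked 1430, 3736 and 2716. The peak at 10563999 to 10564442 had a signal of 183.8 and pooled rank 2591, 4721 bp upstream of the same TSS, and ranked 2376, 2945 and 2866. Both are in an intron of 6 of the 15 transcripts, and the first was not among the top peaks of replicate 2. Just outside the optimal set, intronic peaks had signals of 155.0 (10559797 to 10560240, pooled rank 3306) and 143.9 (10567977 to 10568420, rank 3662).

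**Figure D2:**
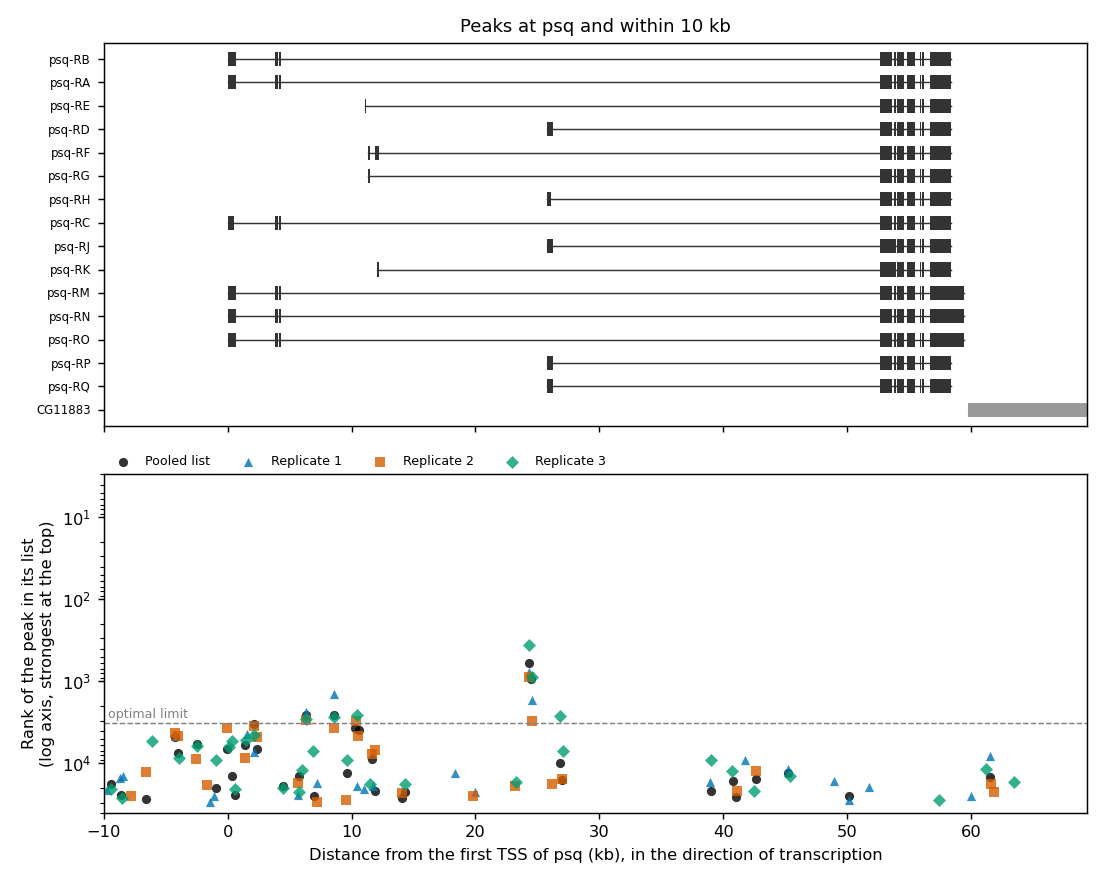
Transcripts of psq with their exons as boxes and the neighbouring gene CG11883 as a grey bar (top) above the rank of each peak in the pooled list and the 3 replicates (bottom, log axis, strongest at the top), by distance from the first TSS. The strongest pair lies just before the last TSS, with pooled ranks of 597 and 937, and many peaks below the dashed line (the optimal limit) lie between and around the other TSSs.

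At the TSSs of psq themselves, the pooled list held 5 peaks and none reached the optimal set. Their signals were 137.8, 97.61, 82.86, 64.86 and 51.89, with summits 492 bp upstream, 53 bp upstream, 306 bp downstream, 349 bp downstream and 208 bp upstream of the nearest TSS. The strongest ranked 3914 in the pooled list, and its strongest overlapping peaks ranked 19089, 3020 and 2564 in replicates 1, 2 and 3, with their own summits more than 500 bp from a TSS. Replicate 1 was thus far lower there than the others. A pooled promoter peak was present at 33.3% of protein-coding genes, and a pooled peak within 10 kb at 90.2%. The top peaks of replicates 1, 2 and 3 gave a promoter peak at 12.5%, 11.9% and 9.92% of protein-coding genes. Trl had such a peak in every replicate, while psq and CLAMP had none in any.

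Within 10 kb of psq the pooled list held 36 peaks, 22 of them intronic, and the replicates held 27, 30 and 33, of which 4, 4 and 6 were top peaks. Among its 32 pooled peaks outside the optimal set, 12 overlapped a peak in all 3 replicates, 16 in 2 and 4 in 1. The same shares over all pooled peaks outside the optimal set were not computed, so these counts do not set psq apart. Pooled peaks that overlap each other can also share a replicate peak. Neighbouring pooled peaks overlapped in 10 pairs at psq, with summits 200 to 402 bp apart, and in none at Trl or CLAMP. Per 10 kb of intron, psq had 4.25 pooled and 0.772 optimal peaks. Trl had 4.37 of either kind. Among the 2069 genes with at least 5 kb of intron, the median was 2.62 pooled and 0 optimal peaks per 10 kb, and 90% of them had at most 6.33 pooled and 1.25 optimal peaks. The optimal density of Trl lay above that 90% level. Among the 777 genes with at least 20 kb of intron, the class of psq, 90% had at most 4.91 pooled and 0.748 optimal peaks per 10 kb. At 0.772 optimal peaks, psq lay just above that level. Its value counts the overlapping pair as 2 peaks and would be lower with the pair as 1 place. The level of the class, which also counts overlapping peaks separately, was not recomputed that way. The limit of 10 kb matters for psq: the farthest pooled peak inside it lies 9429 bp upstream, and 3 optimal peaks lie just beyond, 12216, 13193 and 15799 bp upstream, with signals of 224.4, 326.0 and 521.0. The last is at a TSS of lola, another BTB-domain factor. Near Trl, the next optimal peak is 19388 bp away with a signal of 261.9.

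CLAMP had no optimal peak at its TSS, in its introns or within 10 kb. CLAMP (FBgn0032979) lies on 2L from 22165720 to 22169143 on the minus strand, is 3.42 kb long, with 2 transcripts from 1 TSS, and has 0.527 kb of intron. The pooled list held 2 peaks, both promoter peaks and both near its lower end. The stronger (22168640 to 22169083, signal 52.85, pooled rank 21197) lies 281 bp downstream of the TSS and overlapped peaks ranked 23902 in replicate 1 and 13563 in replicate 2, and none in replicate 3. The weaker (22169222 to 22169665, signal 44.35, pooled rank 29742) lies 301 bp upstream, where lncRNA:CR44809 also starts within 500 bp, and overlapped a peak of replicate 1 only, at rank 14595. The replicates held 7, 4 and 3 peaks within 10 kb, and their best ranks were 11634, 13563 and 16248. No list held a peak placed as intronic at CLAMP, because summits within 500 bp of the TSS were called promoter first. By position, the stronger pooled summit lies in an intron of both transcripts. That intron runs between the annotated exons at 22168380 to 22168643 and 22168888 to 22169143. Replicate 3 held no peak in the gene at all.

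**Figure D3:**
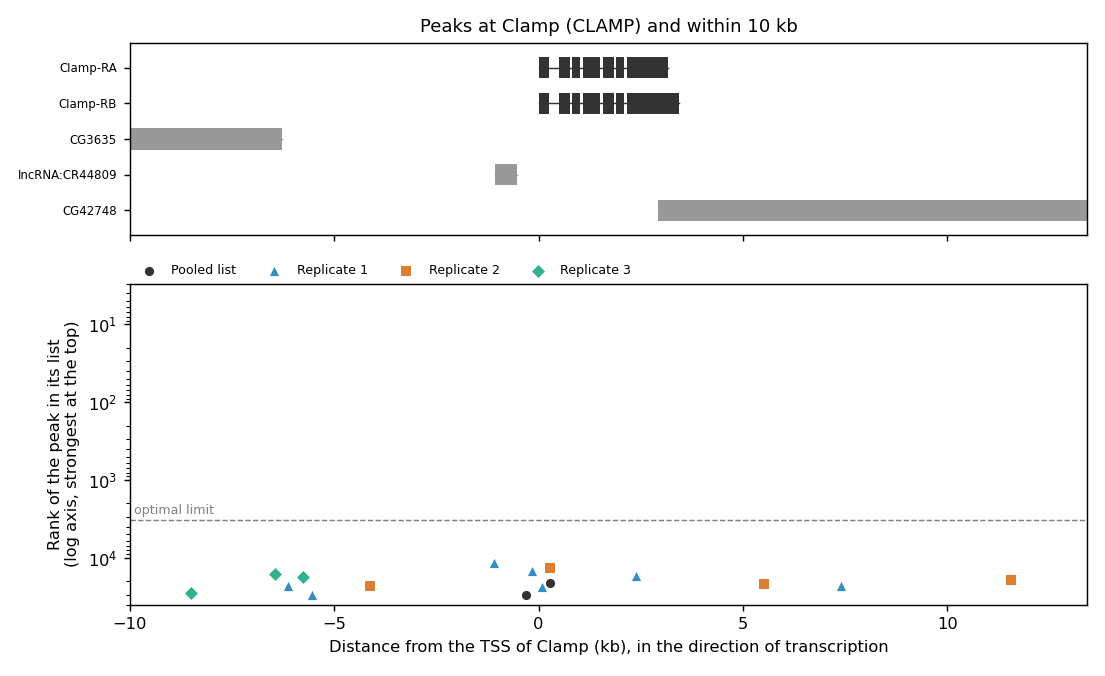
Transcripts of CLAMP with their exons as boxes and the neighbouring genes as grey bars (top) above the rank of each peak in the pooled list and the 3 replicates (bottom, log axis, strongest at the top), by distance from the TSS. All peaks lie below the dashed line at the optimal limit, and the best rank is 11634, in replicate 1.

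Set side by side, the 9 optimal peaks of Trl and psq ran from pooled rank 5 to 2591. All 9 overlapped a peak in every replicate, and 7 overlapped a top peak in every replicate. The exceptions were the Trl peak 595 bp inside Trl-RF, at rank 3271 in replicate 1, and the psq peak 2449 bp upstream of its TSS, at rank 3736 in replicate 2. Ranking the replicate peak with the nearest summit in place of the strongest one left 6 of 9, the Trl promoter peak being lost in replicate 3. The same shares over all optimal peaks were not computed. The overlapping psq peaks are counted separately among the 9, although their strongest replicate peaks are the same.

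**Figure D4:**
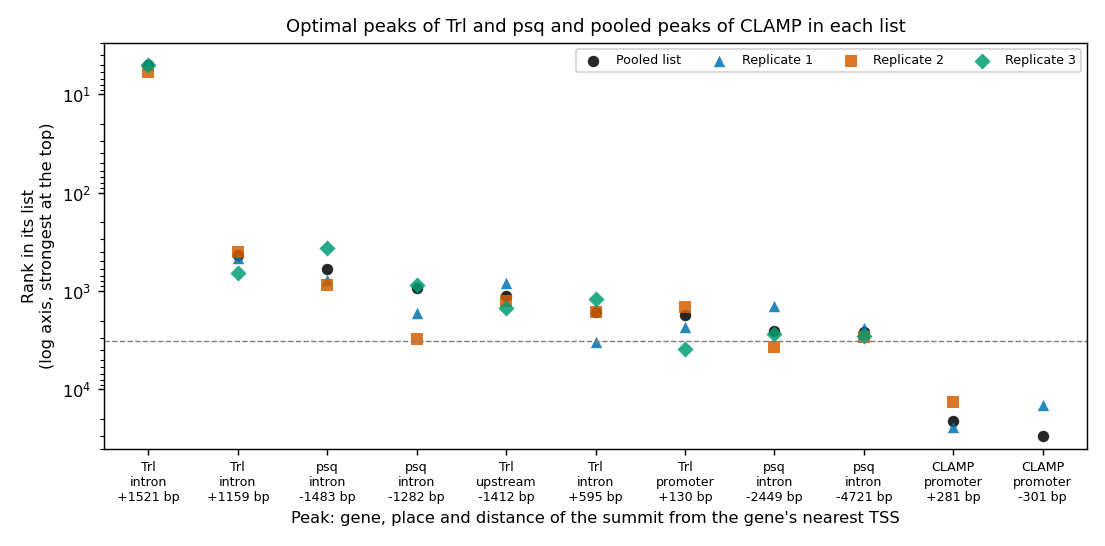
Rank in the pooled list and in each replicate (log axis, strongest at the top) of the 9 optimal peaks of Trl and psq and the 2 pooled peaks of CLAMP, for the replicate peak with the nearest summit, in order of pooled rank. The Trl peak at +1521 bp keeps ranks of 5 to 6 in all lists, whereas the CLAMP peaks rank 13563 or lower and have no symbol where a replicate held no overlapping peak. The dashed line marks the optimal limit.

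The factors themselves bind GA repeats, and these letters were looked up at the peaks of their genes. The motifs were GAGAG and GAGAGAG on either strand, with overlapping matches counted and every GAGAGAG holding GAGAG as well. Within 100 bp of the summit, GAGAG occurred at 0 of the 9 optimal peaks of Trl and psq, and at 22.7% of all optimal peaks. The corresponding share was 21.5% at the other pooled peaks and 27.6% in windows of the same width 500 bp from the optimal summits. GAGAGAG occurred in 4.14%, 2.99% and 6.30% of the same windows. GAGAG lay a little farther out at 5 of the 9 peaks, 161 to 199 bp from the summit, and 24.4% of all optimal peaks had their nearest match more than 100 and less than 200 bp away. The strongest Trl peak had its nearest GAGAG at 199 bp, the promoter peak of Trl at 175 bp and the peak inside Trl-RF at 161 bp. The remaining distances of Trl were 228 bp and, at the peak shared with Mgat4a, 1519 bp.

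At psq the nearest GAGAG was 168 and 180 bp from the weaker optimal summits and 1619 and 1570 bp from the strongest pair. Distances over 1500 bp occurred at 3 of the 9 peaks and at 2.81% of all optimal peaks, whose median distance was 212 bp, with the middle 50% from 106 to 460 bp. The 3 include the overlapping pair of psq, which share their surroundings. In the full width of the peak, the promoter peak of Trl held 10 matches of GAGAG and, counted separately, 7 of GAGAGAG. Overlapping matches were counted, so these are not numbers of separate sites. The strongest Trl peak held 1 match of GAGAG, and the weaker optimal peaks of psq held 4 and 5. Outside the optimal set, 10 of 39 pooled peaks of the members held GAGAG within 100 bp of the summit, 2 of 5 at Trl, 8 of 32 at psq and 0 of 2 at CLAMP. The share over all pooled peaks outside the optimal set was 21.5%, close to this count. Of the 39, 8 are promoter peaks, and 3 of these held it. It lay within 100 bp of the summit of the Trl promoter peak printed above, with 2 matches, and of a pair of psq promoter peaks that overlap each other, with 5 and 2.

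Over the whole loci, GAGAG was denser than the average of the 6 arms at Trl and psq and sparser at CLAMP. Trl with 10 kb on either side held 72 matches of GAGAG, 2.17 per kb, and psq held 204, 2.57 per kb, against 1.57 per kb over the 6 arms. CLAMP held 22, 0.939 per kb, and no GAGAGAG, of which Trl held 13 and psq 67. At its pooled peaks the nearest GAGAG was 246 and 336 bp from the summit.

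In A and T content the strongest Trl peak stood near the top of the optimal set, at 76.6% of the bases within 100 bp of the summit, the 97.7th percentile. The optimal median was 65.7%, with 80% of windows between 55.2% and 73.1%, against 60.7% at the other pooled peaks and 57.2% in windows 500 bp from the optimal summits. The other Trl peaks had 66.7% (narrow), 53.7% (promoter), 68.2% (inside Trl-RF) and 61.2% (shared with Mgat4a). At psq the values were 65.7% and 56.7% for the strongest pair, 59.7% and 53.2% for the weaker peaks. Both CLAMP peaks were at 65.7%. No 8-base word occurred in more than 3 of the 9 windows, and 9 words occurred in 3, the most common of these in the optimal set being AAATTAAA, present in 11.6% of all optimal windows.

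**Figure D5:**
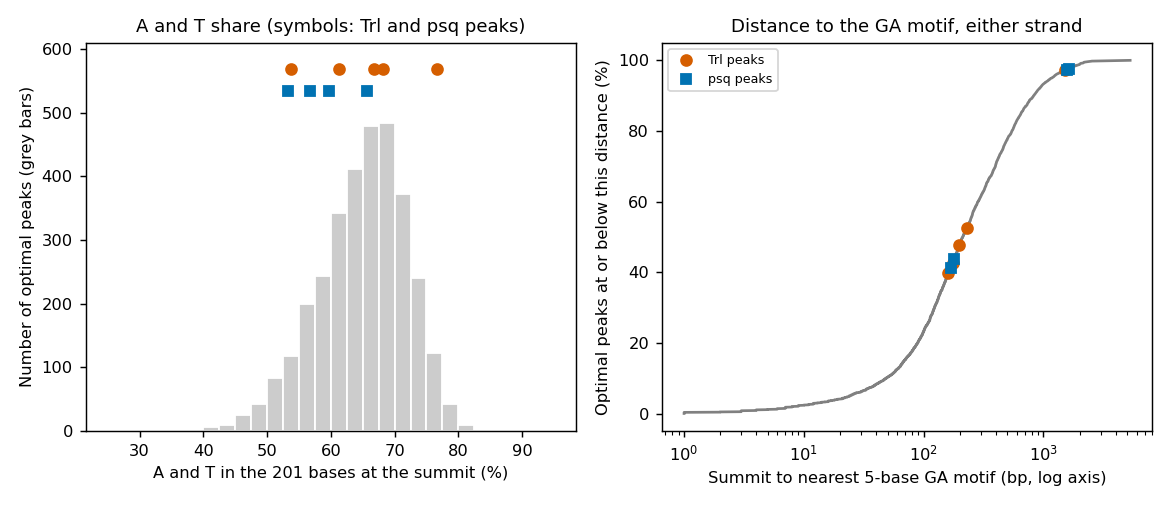
Left, share of A and T (%) within 100 bp of the summit for all optimal peaks (grey bars, number of peaks) and the Trl and psq peaks (symbols in rows above the bars). Right, percentage of optimal peaks whose nearest GAGAG, on either strand, lies within the distance on the log axis in bp, with the Trl and psq peaks on the curve. The strongest Trl peak lies at 76.6% A and T, and 3 peaks lie beyond 1500 bp from GAGAG.

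Genes that work with these factors were taken from 4 lists, chosen with earlier results of these data known, in which 4 of 36 genes (11.1%) had an optimal promoter peak, close to the 10.8% of all protein-coding genes. Of 8 genes of GAGA factor cofactors, 2 had one. The first was lolal, a BTB-domain partner of the GAGA factor, with a signal of 261.4 and ranks of 2603, 1360 and 1135 in replicates 1, 2 and 3. The other was dre4, the Spt16 subunit of the FACT histone chaperone, with a signal of 195.4 and ranks of 5071, 1885 and 3558, not among the top peaks of replicates 1 and 3. The remodelling subunits E(bx), Iswi, Nurf-38 and Caf1-55, the FACT subunit Ssrp and corto had none.

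None of 7 dosage compensation genes had a promoter peak in the optimal set or in any replicate at any rank. They were msl-1, msl-2, msl-3, mof, mle and the non-coding RNA genes roX1 and roX2. The background share of promoter peaks was 10.8% for the optimal set and 33.3% for the pooled list at any rank. It covers protein-coding genes only, so roX1 and roX2 have no background here. For replicate peaks at any rank, no such share was computed. Of 8 genes of other factors that bind Polycomb response elements, none had an optimal promoter peak and 3 had an optimal peak inside the gene only, as did 4.65% of all protein-coding genes and 27.5% of those at least 20 kb long. Only 1 of these 8 genes is at least 20 kb long, and it is among the 3. The strongest of the 3 was at Adf1, a Myb-like activator gene, with a signal of 1076 and ranks of 53, 80 and 222, followed by grh, the gene of the epithelial regulator Grainyhead, with 493.8 and ranks of 545, 517 and 527. Of 13 genes of other BTB or Psq-domain factors, 2 had an optimal promoter peak and 6 one inside the gene only. Long genes have more room for a peak, and 10 of these 13 are at least 20 kb long. Of those 10, 5 had an optimal peak inside the gene only, beside the 27.5% of all protein-coding genes of that length. The promoter peak of lola, an axon guidance regulator gene, had a signal of 521.0 and ranks of 573, 511 and 308, and an antisense RNA gene starts within 500 bp of it. That of fru, a regulator of courtship behaviour, had 198.6 and ranks of 5853, 1642 and 1915, lowest in replicate 1. The strongest inside a gene only were at mod(mdg4), an insulator cofactor gene, with 622.5 and ranks of 207, 255 and 833, and at bab1, a limb and abdomen patterning gene, with 408.6 and ranks of 542, 768 and 1015. Among the top peaks of replicates 1, 2 and 3, respectively, 2, 6 and 5 of the 36 genes had a promoter peak. The shares of all protein-coding genes were 12.5%, 11.9% and 9.92%.

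The genes with peaks most like those of the members were found by the mean absolute difference in log10 rank over the 3 replicates, among 1627 protein-coding genes whose strongest pooled peak is also intronic. For Trl, at ranks 5, 6 and 5, these were ush at a difference of 0.149, a zinc-finger cofactor gene with ranks of 7, 5 and 3, the protein kinase gene Lk6 at 0.349, with ranks of 17, 14 and 7, and CG32772 at 0.386, with ranks of 12, 18 and 10. For psq, at ranks 777, 877 and 365, they were spen, a nuclear RNA-binding protein gene, at 0.0192, the cytoskeletal linker gene Moe at 0.0514 and the glypican gene dlp at 0.0547. The ranks of spen were 748, 935 and 354. CLAMP had no peak in the gene in replicate 3, so no likeness could be computed for it.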

How the data were processed

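Peak lists of transcription factor ChIP-seq on 3 replicates were used. Per the labels and the deposited notes, the coordinates are on dm6, replicate lists were called on each replicate, the pooled list on all of them, and IDR, a measure of rank reproducibility, gave the optimal set of 3237 peaks. Top peaks of a replicate are its 3237 strongest. For the aligner, the peak caller and the IDR cut-off, no name or value is given in the sources used here. The signal value of each peak is the authors' own, and the scaling between lists is not stated, so peaks were ranked by signal within a list. The deposited −log10 q-value served only to order equal signals.

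Genes and TSSs came from Ensembl release 115, sequence from the RefSeq copy of Release 6. A summit within 500 bp of a TSS was called promoter, and 2 optimal summits outside their peak were replaced by the midpoint. The members and the 4 gene lists were chosen with earlier results of these data known, and 1 list symbol that matched no gene was left out. Named genes were the members, the genes at optimal summits within 10 kb of them, list genes with an optimal promoter peak, the 2 strongest of each list with a peak inside the gene only, and for each member the 3 genes nearest in replicate ranks among those with the same place of strongest peak. Other named genes (neighbours, and list members without an optimal peak) give context. Letters were counted in 201 bases at the summit. No test was made, and there is 1 group. The placing of summits was checked on simulated positions. Python 3.11.15, numpy 2.4.6, pandas 2.3.3 and matplotlib 3.10.9 were used. Alternatives were promoter windows of 250 and 1000 bp, distances of 5 and 20 kb, placing by any overlap, the stronger 1618 optimal peaks, each replicate left out, and other windows for the letters.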

Additional observations from a re-analysis of the deposited data

How the results depend on the processing

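Over 15 results, 71 of 91 values under the alternatives stayed within 1.5 times the count reported, and 20 moved. For CLAMP every count of optimal peaks stayed at 0 under all alternatives run, as did the optimal promoter peaks of psq. With the stronger 50% of the optimal peaks, which are fewer by construction, Trl had 3 peaks within 10 kb in place of 5 and 0 promoter peaks in place of 1, psq had 2 within 10 kb and 2 intronic in place of 4, and the cofactor list and the BTB and Psq-domain list had 1 gene each in place of 2. A promoter window of 1000 bp, or placing peaks by any overlap of their interval, gave Trl 2 promoter peaks. The window of 1000 bp also gave 2 of the other Polycomb response element factors in place of 0, and the window of 250 bp 1 gene of the BTB and Psq-domain list in place of 2. Within 20 kb, psq had 7 optimal peaks. With windows reaching 200 bp to either side of the summit, 4 of 9 peaks held GAGAG in place of 0. A window counts only whole matches, while the distances given above run to the middle of a match. The match 199 bp from the strongest Trl summit therefore crosses the edge and is not counted.

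With each replicate left out in turn, keeping the optimal peaks with summits in top peaks of both others, Trl had 3 to 4 peaks within 10 kb (3 without replicate 2) and 0 to 1 promoter peaks (0 without replicate 1 or 2). The cofactor list had 1 gene without any of the 3, and the BTB and Psq-domain list 1 to 2 (1 without replicate 2 or 3). The cause was not tested beyond the smaller number of peaks. No paired analysis was possible because there is 1 group and no test. The pooled list is labelled as holding background besides peaks. Read depth is unknown, and all lists share a control alignment that was not analysed here, so the lists alone do not show how weak peaks, such as those at CLAMP, compare with no signal.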
